A study of Mus musculus with 30 samples.

Results

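The subject of this account is the step by which pyruvate enters mitochondrial oxidation, followed through 10 genes in 2 mouse fat depots during cold exposure. The genes were taken by symbol, as rows of the deposited gene table: the pyruvate carrier genes Mpc1 and Mpc2, the E1 subunit genes of pyruvate dehydrogenase (PDH) Pdha1 and Pdhb, the PDH kinase genes Pdk1, Pdk2, Pdk3 and Pdk4, and the PDH phosphatase genes Pdp1 and Pdp2. All 10 were found among the 21652 genes of the table, once each, and all 10 passed the filter on low counts in every comparison. Male C57BL/6J mice, 7 to 8 weeks old and kept 5 to a cage, gave PolyA RNA from brown fat (BAT) and from the inguinal depot (iWAT), a subcutaneous white fat. Each depot had 3 groups of 5 libraries, 30 in all: mice at 22 °C, mice after 6 h at 6 °C and mice after 24 h at 6 °C. No genetic change or drug is named for any group. The mice had 12 h of light and 12 h of dark. No hour of collection and no feeding state stand among the sample details used here. Changes with hours of cold therefore cannot be told apart from changes with time of day or feeding. The housing text gives a room at 24 ± 2 °C while the control groups are labelled 22 °C, and the hours of cold stand under a tag called batch although they are exposure times. The labels do not say which libraries came from separate animals or whether iWAT and BAT libraries of 1 number came from 1 mouse, so every p-value measures the spread between libraries, which may be technical.

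Pyruvate made by glycolysis or from lactate crosses the inner mitochondrial membrane through a carrier built from the Mpc1 and Mpc2 proteins. The PDH complex then turns it into acetyl-CoA, an irreversible step that commits carbohydrate carbon to the citrate cycle or to fat synthesis. PDH kinases switch the complex off by phosphorylating serines of the E1 alpha subunit encoded by Pdha1, and PDH phosphatases switch it back on. Pdk4 is the kinase gene best known to rise in fasting and when fatty acids are burnt, and brown fat in the cold burns both fatty acids and glucose.

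Promoter sequence is shown for 5 of the genes, chosen with their values known and by no fixed rule: the 3 kinase genes Pdk4, Pdk2 and Pdk1, and the E1 genes Pdha1 and Pdhb. RefSeq's table for GRCm38.p6 held promoters of 9 of the 10 genes, 12 in all; the gene counts were made on another build, so these coordinates are for the sequences only. Each line gives 250 bases up to the base before the annotated transcription start, 5′ to 3′ on the strand of the gene, with motif matches in capitals: GGGCGG, the GC box bound by Sp factors, or its complement CCGCCC, and CACGTG, an E-box.
Pdk4, chr6:5496279-5496528, minus strand: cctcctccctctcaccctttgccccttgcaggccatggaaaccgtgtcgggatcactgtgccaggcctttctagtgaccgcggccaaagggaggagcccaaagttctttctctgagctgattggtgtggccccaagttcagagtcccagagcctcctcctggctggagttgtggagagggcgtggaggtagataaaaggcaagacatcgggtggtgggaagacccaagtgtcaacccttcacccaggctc
Pdk2, first promoter, chr11:95041372-95041621, minus strand: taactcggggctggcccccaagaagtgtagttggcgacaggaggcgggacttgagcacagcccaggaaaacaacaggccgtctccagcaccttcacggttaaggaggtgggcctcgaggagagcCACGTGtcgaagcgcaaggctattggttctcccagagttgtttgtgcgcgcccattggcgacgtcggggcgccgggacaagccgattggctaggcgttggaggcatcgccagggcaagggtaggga
Pdk1, first promoter, chr2:71872974-71873223, plus strand: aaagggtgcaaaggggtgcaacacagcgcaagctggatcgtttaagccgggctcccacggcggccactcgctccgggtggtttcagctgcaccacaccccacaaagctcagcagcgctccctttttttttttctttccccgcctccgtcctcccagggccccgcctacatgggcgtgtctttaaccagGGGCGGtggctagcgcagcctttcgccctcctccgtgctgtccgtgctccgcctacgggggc
Pdha1, chrX:160138431-160138680, minus strand: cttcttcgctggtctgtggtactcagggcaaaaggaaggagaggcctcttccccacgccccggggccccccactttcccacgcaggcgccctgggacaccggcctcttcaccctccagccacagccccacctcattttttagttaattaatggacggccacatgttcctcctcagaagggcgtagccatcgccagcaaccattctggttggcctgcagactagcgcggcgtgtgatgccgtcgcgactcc
Pdhb, chr14:8172993-8173242, minus strand: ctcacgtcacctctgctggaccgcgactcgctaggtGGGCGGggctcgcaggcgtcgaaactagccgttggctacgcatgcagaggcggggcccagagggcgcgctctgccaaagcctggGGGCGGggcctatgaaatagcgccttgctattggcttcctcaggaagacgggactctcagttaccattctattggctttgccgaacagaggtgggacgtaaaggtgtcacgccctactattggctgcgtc
Motifs were searched on both strands over windows of 300 bases, 250 before the start and 50 from it on. GC boxes lay in the Pdhb promoter at -214 and -130, in the first Pdk1 promoter at -62 and 15, and also in promoters of Mpc1, Mpc2, Pdk3 and Pdp2, counting the start base as 0 and giving the leftmost base of the match. The GC box is common: 35.7% of 32851 promoters of this length held one. The E-box, present in 7.15% of promoters, lay in the first Pdk2 promoter at -126 and in the Pdp2 promoter at -219. The nuclear receptor half-site AGGTCA, which 16.3% of promoters held, occurred among the 12 once, in the second Mpc1 promoter at -244. No match to TNAAGGTCA (an extended half-site that contains AGGTCA, 1.28% of promoters), to the forkhead motif GTAAACA (3.65%) or to the cAMP response element TGACGTCA (1.79%) was found in these windows, and the Pdk4 and Pdha1 windows held none of the 6 motifs.

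Between 25.3 and 41 M reads (M, mega) per library were assigned to genes. Tissue labels were checked against marker genes: Zic1, a brown-fat developmental regulator, reached at most 0.0276 CPM (counts scaled to equal library size, the unit of all levels below unless FPKM is named) in any iWAT library and was 8.69 to 28.6 CPM in BAT, while Hoxc10, a posterior body position gene, was 14.8 to 26.1 CPM in iWAT and at most 0.0344 in BAT. Skeletal muscle transcripts, summed over 10 marker genes, differed widely among libraries. In iWAT replicate 2 at 22 °C they came to 3360 CPM against 52.2 to 61.5 CPM in the other libraries of that group. In BAT they ranged from 325 to 8640 CPM at 22 °C, from 87.1 to 1500 after 6 h and from 79.8 to 4500 after 24 h, highest in replicates 5 and 4 at 22 °C and replicate 5 at 24 h. Results are therefore also given without those libraries. In such bulk samples, fewer cells of a type and less RNA per cell cannot be told apart. Sequence shared with other loci touches 3 of the genes. Pdhb shares 1079 bases at 97.034% identity with the pseudogene Gm6123, and Mpc1 shares 261 bases at 100% with Mpc1-ps. Pdha1 overlaps Map3k15 on the opposite strand over 425 bases. Map3k15 had 25 to 153 counts per library and Pdha1 9246 to 54056, which does not show how reads of the shared stretch were counted. Mpc1 also overlaps 4930506C21Rik on the opposite strand, over 217 bases. Use of strand in counting is not given in the sources used here, which bears on Pdha1 and Mpc1. Strand does not settle the sequence that Pdhb and Mpc1 share with pseudogenes, and the part of that sequence in their counts was not tested.

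The kinase Pdk4 had the highest transcript level of the 10 genes in BAT, and Pdk3 the lowest everywhere. Levels between genes are compared as FPKM, which is the deposited read count scaled by the length of the gene model and by the library total. In BAT at 22 °C the order of mean FPKM was Pdk4 639 ± 79.6 (SD, n = 5 for every mean here), Pdha1 373 ± 25, Pdhb 355 ± 26, Mpc1 273 ± 19.9, Pdk2 94.4 ± 2.42, Mpc2 84.3 ± 5.34, Pdp2 25.9 ± 3.05, Pdk1 21.8 ± 2.11, Pdp1 1.95 ± 0.507 and Pdk3 0.648 ± 0.151. In that order the ranges over libraries overlapped for the neighbours Pdha1 and Pdhb, Pdk2 and Mpc2, and Pdp2 and Pdk1, and not for the other neighbours. In iWAT at 22 °C the 4 leading genes overlapped from each to the next: Mpc1 at 156 ± 32.9, Pdhb at 126 ± 26.1, Pdha1 at 116 ± 13.1 and Pdk4 at 94.4 ± 57.7 FPKM. After 24 h in the cold Pdk4 led in iWAT as well, at 406 ± 106 FPKM, with Mpc1 next at 252 ± 53.5 and the ranges overlapping. Among the phosphatases, Pdp2 exceeded Pdp1 in every group with no overlap, for example 10.3 ± 1.86 against 3.64 ± 0.399 FPKM in iWAT at 22 °C.

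**Figure D1:**
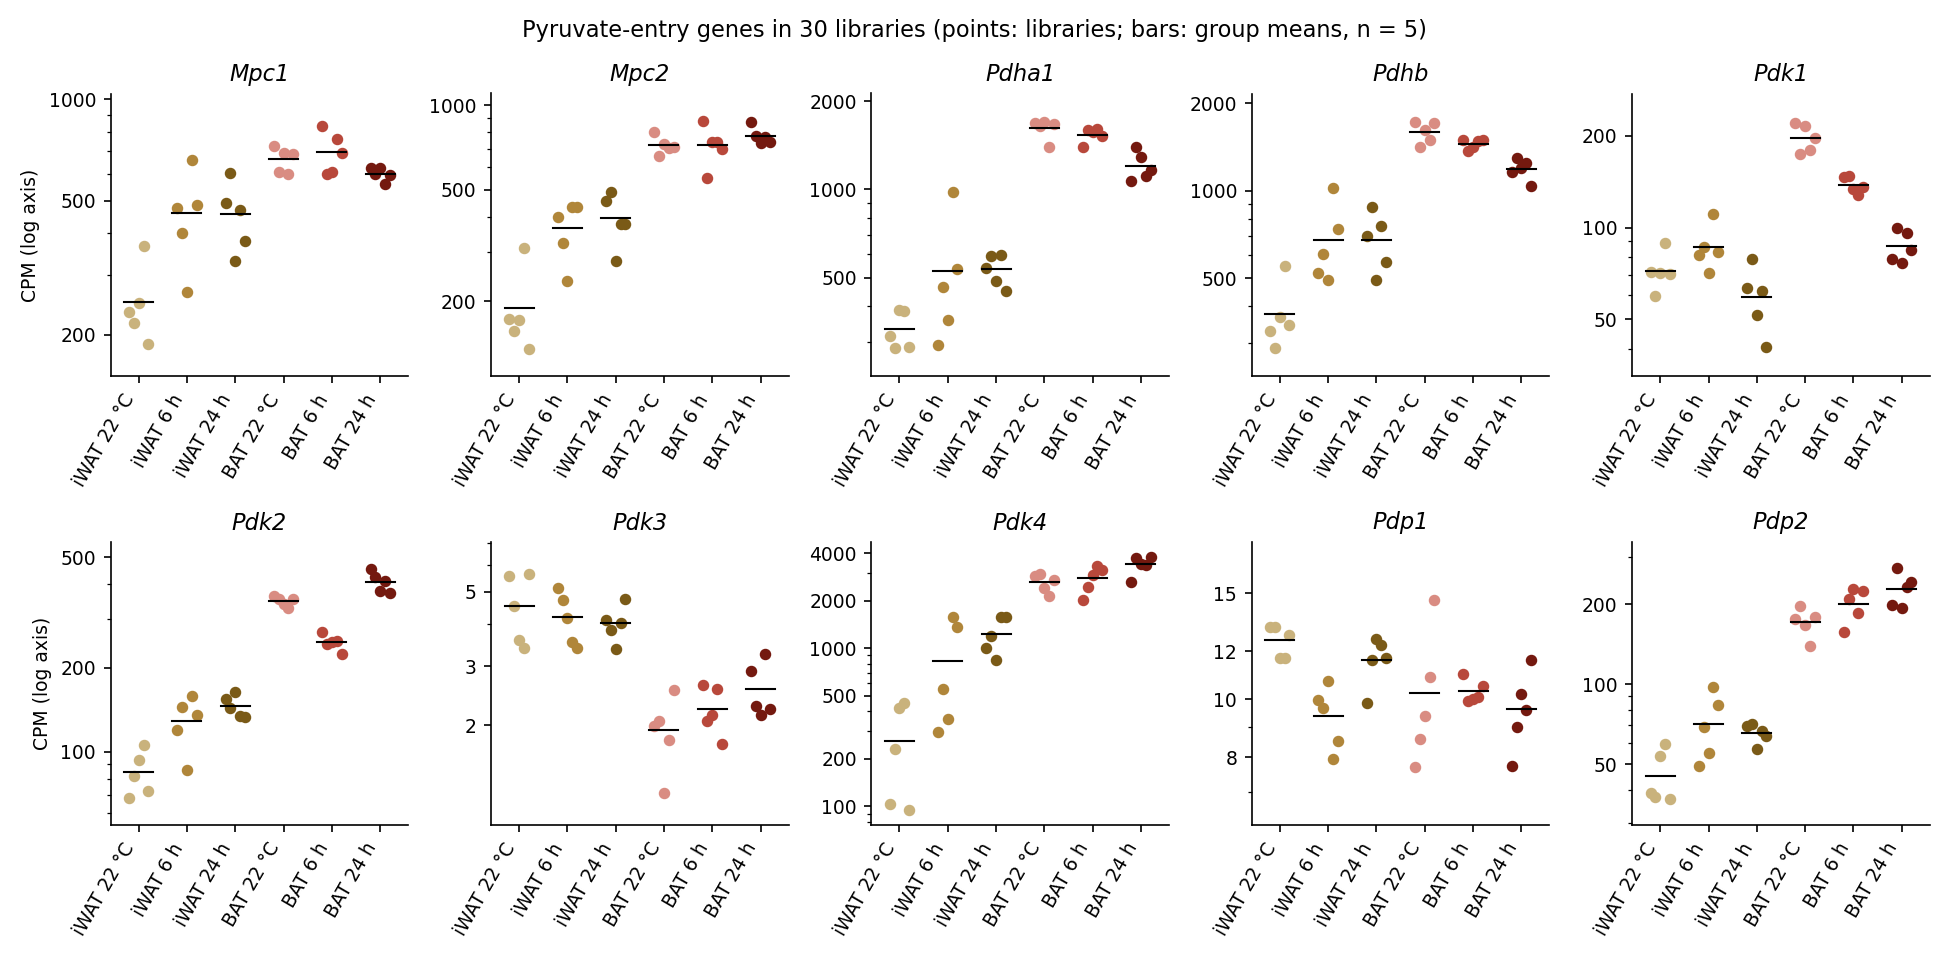
Level of each of the 10 genes in all 30 libraries, as CPM on a log axis with its own range for each gene. Points are libraries and bars are group means (n = 5); Pdk1 steps down in BAT with no overlap between the 3 groups, whereas Pdk4 in iWAT goes from 95.3 to 448 CPM at 22 °C to 842 to 1570 CPM after 24 h.

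In iWAT both carrier genes, Pdhb, the kinases Pdk2 and Pdk4 and the phosphatase Pdp2 rose in the cold, at 6 h and at 24 h. After 6 h, 6 of the 10 genes were higher and 1, Pdp1, was lower at an adjusted p under 0.05; over all genes tested, 12.9% were higher and 10.1% lower. After 24 h, 6 were higher, against 12.8% of all genes, and 0 lower, against 10.1%; an unadjusted p under 0.05 gave 7 higher and 0 lower, and DESeq2 called 7 higher and 0 lower. The median log2 fold change of the 10 genes was 0.63 at 6 h and 0.72 at 24 h, where that of all genes was -0.03 and -0.04. Replicate 2 (rich in muscle transcripts) and replicate 4 of the 22 °C group were left out together, a choice made after seeing the data. The number called was then 7 at 6 h and 6 at 24 h, the same as with them. Replicate 4 was not rich in muscle transcripts (61.5 CPM) and was the highest control for Mpc1, Mpc2, Pdhb, Pdk2, Pdk4 and Pdp2. Without replicate 2 alone, the calls of Pdk4 at 6 h (adjusted p = 0.062) and of Pdp2 at both times (0.0548 and 0.0973) were lost. Other tissue markers moved in iWAT at the same time. The 8 brown adipocyte markers summed to 132 to 1240 CPM at 22 °C, 751 to 5850 after 6 h and 3050 to 5080 after 24 h. Ucp1, the uncoupling protein of brown fat, was the largest part, with medians of 138, 1710 and 3030 CPM. Prdm16 stayed at medians of 19.5, 19.9 and 18.8 CPM. Of 7 brown markers tested, 3 were called higher and 0 lower at each time. The 7 progenitor and fibroblast markers summed to 1090 to 2320, 719 to 1410 and 713 to 1360 CPM, with 4 called lower at 6 h and 2 at 24 h. The 6 general adipocyte markers summed to 20000 to 26100, 26100 to 32400 and 24000 to 29100 CPM, mostly Fabp4 (medians 12500, 18400 and 18800 CPM). Of these 6, 3 were called higher at 6 h and 1 at 24 h, and 0 lower. The part of all these markers in the changes of the 10 genes was not tested.

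The carriers rose to a similar extent. Mpc1, an obligate subunit of the pyruvate carrier, stood at 234, 217, 249, 367 and 188 CPM in the 5 iWAT libraries at 22 °C, at 476, 402, 267, 659 and 487 after 6 h, and at 491, 606, 332, 468 and 380 after 24 h. Replicate 4 at 22 °C was the highest control and overlapped with the cold groups, while the other 4 controls lay below every cold library. Mpc1 was 1.8-fold higher at both times (log2 0.85 ± 0.22 SE, adjusted p = 0.015, and 0.84 ± 0.22, adjusted p = 0.012). Mpc2, its partner subunit, stood at 173, 157, 171, 309 and 135 CPM at 22 °C, at 399, 324, 237, 432 and 432 after 6 h, and at 457, 491, 279, 376 and 376 after 24 h. The same control, replicate 4, was far above the other 4 and reached into the cold groups. Mpc2 was 1.9-fold higher at 6 h (log2 0.93 ± 0.22, adjusted p = 0.0095) and 2.07-fold at 24 h (1.05 ± 0.22, adjusted p = 0.0036).

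The E1 genes differed in whether they passed the threshold, not in direction. Pdhb, the E1 beta subunit, stood at 328, 287, 368, 553 and 344 CPM at 22 °C, at 522, 607, 492, 1020 and 741 after 6 h, and at 700, 883, 493, 755 and 568 after 24 h. Its values overlapped only through control replicate 4, and it was higher by log2 0.83 ± 0.21 at 6 h (adjusted p = 0.015) and 0.84 ± 0.21 at 24 h (adjusted p = 0.011). Pdha1, the phosphorylated alpha subunit, stood at 316, 287, 387, 385 and 289 CPM at 22 °C, at 293, 464, 359, 981 and 533 after 6 h, and at 537, 593, 487, 596 and 451 after 24 h. The 6 h libraries of Pdha1 were the most scattered, with replicate 4 well above and replicates 1 and 3 within the control range, whereas all 5 libraries of 24 h lay above all controls. The log2 values were 0.64 ± 0.24 at 6 h (adjusted p = 0.063) and 0.66 ± 0.24 at 24 h (adjusted p = 0.056), just short of the threshold. DESeq2 put both below it (adjusted p = 0.026 and 0.0212), as did leaving out replicate 1 or replicate 3 of the 6 h group (0.0234 and 0.0319) or control replicate 4 at 24 h (0.0478). Other settings went the opposite way at 6 h. Without 6 h replicate 4 the log2 value was 0.29 (adjusted p = 0.206), and with limma on log2(FPKM + 1) it was 0.28 (adjusted p = 0.313).

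Pdk4 made the largest change of the 10 genes in iWAT. It stood at 103, 231, 416, 448 and 95.3 CPM at 22 °C, at 297, 553, 357, 1580 and 1360 after 6 h, and at 1000, 1200, 842, 1570 and 1570 after 24 h. At 6 h, replicates 4 and 5 stood apart at the level of the 24 h group while replicates 1 and 3 lay within the control range; at 24 h there was no overlap with the controls. The rise was 3.16-fold at 6 h (log2 1.66 ± 0.5, adjusted p = 0.027) and 4.74-fold at 24 h (2.24 ± 0.51, adjusted p = 0.0059). The 6 h call depended on single libraries, with adjusted p of 0.0684, 0.062 and 0.0534 without control replicate 1, 2 or 5 and of 0.076 and 0.071 without 6 h replicate 4 or 5. In the 22 °C group the brown marker sum of replicates 1 to 5 was 156, 352, 1040, 1240 and 132 CPM. After 6 h it was 1060, 2450, 751, 5470 and 5850 CPM, with Ucp1 the largest part (median 1710 CPM). The libraries highest in Pdk4 were thus also the highest in this sum, and the part of this in the Pdk4 values was not tested.

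Pdk2, a kinase gene expressed in most tissues, rose less and more evenly. Its values were 68.2, 81.8, 93.5, 106 and 72.1 CPM at 22 °C, 120, 145, 86.2, 159 and 135 after 6 h, and 154, 143, 164, 134 and 133 after 24 h. Replicate 3 was the lone 6 h library within the control range, and at 24 h the groups did not overlap. The change was log2 0.59 ± 0.15 at 6 h (adjusted p = 0.013; 0.34, adjusted p = 0.0479, with limma on log2(FPKM + 1)) and 0.77 ± 0.15 at 24 h (adjusted p = 0.0023). Pdk1, known as a target of the hypoxia factor HIF-1, was 71.4, 59.5, 71.1, 88.9 and 70.3 CPM at 22 °C, 81.3, 86.2, 71.1, 111 and 83.4 after 6 h and 63.5, 78.7, 51.6, 61.8 and 40.6 after 24 h. Its log2 values of 0.24 ± 0.15 at 6 h (adjusted p = 0.25) and -0.3 ± 0.15 at 24 h (adjusted p = 0.16) did not pass. On the log2(FPKM + 1) scale with limma the 24 h value was -0.44 with an adjusted p of 0.0174; that scale moved the median of all genes by -0.12 at 6 h and -0.08 at 24 h relative to the count fit. Pdk3, with 3.38 to 5.64 CPM over the 15 iWAT libraries, had log2 values of -0.15 ± 0.17 and -0.2 ± 0.17 and passed at neither time.

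The phosphatases moved in opposite directions at 6 h. Pdp1, a calcium-stimulated phosphatase gene of low level here, stood at 13.2, 13.2, 11.7, 11.7 and 12.8 CPM at 22 °C and at 9.98, 9.65, 10.7, 7.96 and 8.53 after 6 h, with no overlap. It fell by 0.44 ± 0.1 on the log2 scale (adjusted p = 0.01). After 24 h it was 9.84, 11.6, 12.6, 12.3 and 11.7 CPM, with the first library below the controls and the rest at or within rounding of their range, and a log2 value of -0.13 ± 0.1 (adjusted p = 0.4). Pdp2, the other phosphatase, stood at 38.9, 37.8, 53.8, 59.5 and 37 CPM at 22 °C, 49.5, 69.3, 55.1, 97.3 and 83.5 after 6 h and 69.4, 70.9, 56.9, 66.7 and 63.9 after 24 h. Control replicates 3 and 4 reached into the 6 h group and replicate 4 into the 24 h group, and the rise was log2 0.62 ± 0.17 at 6 h (adjusted p = 0.02) and 0.51 ± 0.17 at 24 h (adjusted p = 0.04). Both Pdp2 calls were fragile: at 6 h the adjusted p was 0.0556, 0.0548, 0.0514 and 0.0519 without control replicates 1 and 2 or 6 h replicates 4 and 5 in turn, and at 24 h 0.0992, 0.0973 and 0.0911 without control replicates 1, 2 and 5 and 0.0777, 0.0812, 0.0682 and 0.0628 without 24 h replicates 1, 2, 4 and 5. On log2(FPKM + 1), limma gave Pdp2 0.34 (adjusted p = 0.0723) at 6 h and 0.35 (adjusted p = 0.0767) at 24 h.

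Between 6 h and 24 h in iWAT, 0 of the 10 genes passed with edgeR, where 0.00731% of all genes did, and DESeq2 called 0 as well. At an unadjusted p under 0.05 there were 1 higher and 1 lower. These were Pdp1 at log2 0.32 ± 0.1 (adjusted p = 0.33) and Pdk1 at -0.54 ± 0.15 (adjusted p = 0.25), named here after their values were seen. For Pdk4 the difference was 0.58 ± 0.49, and for both carriers and both E1 genes it lay between 0 and 0.12 with standard errors of 0.21 to 0.24.

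In BAT the 2 kinases Pdk1 and Pdk2 fell within 6 h, and after 24 h Pdk1 had fallen further while Pdk2 had come back above its 22 °C level. After 6 h, 2 of the 10 genes were lower, against 10.2% of all genes, and 0 higher, against 12.5%; an unadjusted p under 0.05 gave 0 higher too, and so did DESeq2. After 24 h, 3 were lower (Pdk1, Pdha1 and Pdhb), against 10.4% of all genes, and 2 higher (Pdk2 and Pdp2), against 12.8%. Between 6 h and 24 h, 4 passed, against 13% of all genes: Pdk2 higher and Pdk1, Pdha1 and Pdhb lower. The median of the 10 genes was -0.01 for both cold times, equal to that of all genes. Without the 3 libraries richest in muscle transcripts, a choice made after seeing the data, 2 genes passed at 6 h, 3 at 24 h and 4 between the times; Pdk2 and Pdp2 at 24 h no longer did (adjusted p = 0.072 and 0.186). Other marker sums moved in BAT as well. The 8 brown adipocyte markers summed to 13000 to 16500 CPM at 22 °C, 19000 to 26600 after 6 h and 18800 to 22000 after 24 h. Ucp1 was most of that sum, with medians of 12100, 15600 and 14300 CPM. Of the 8 markers, 3 were called higher and 0 lower at each time. The 6 adipocyte markers summed to 16600 to 16900, 16000 to 18600 and 18400 to 21900 CPM. Fabp4 was most of that sum, with medians of 9890, 11100 and 13400 CPM, while Adipoq went the other way (780, 673 and 513 CPM). Of these 6, 0 were called higher and 2 lower at 6 h, and 2 higher and 1 lower at 24 h. The 5 white depot markers summed to 25.6 to 61.8, 13.2 to 26.7 and 14.9 to 28.1 CPM. Among them Lep had medians of 22.6, 8.66 and 4.94 CPM. Only 3 of the white depot markers could be tested, and 1 was called lower at each time. The part of all these markers in the changes of the 10 genes was not tested. With all 30 libraries in 1 fit, which shares an estimate of spread with the more variable iWAT, 2, 1 and 2 passed.

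Pdk1 made the largest change of the 10 genes in BAT. Its values were 220, 174, 215, 179 and 197 CPM at 22 °C, 146, 147, 134, 128 and 136 after 6 h and 79.1, 100, 76.6, 96 and 84.2 after 24 h. The 3 groups did not overlap, and the BAT libraries of 24 h reached down into the range of iWAT, 40.6 to 111 CPM. The decrease was log2 -0.52 ± 0.09 at 6 h (adjusted p = 0.00054), -1.19 ± 0.09 at 24 h (adjusted p = 4.7e-07) and -0.66 ± 0.09 from 6 h to 24 h (adjusted p = 0.00027). Without the 3 muscle-rich libraries the values were -0.57, -1.22 and -0.65.

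Pdk2 in BAT was 362, 353, 339, 329 and 354 CPM at 22 °C, 269, 244, 248, 249 and 225 after 6 h and 453, 424, 378, 411 and 372 after 24 h. Each group was tight, and no group overlapped with another. Pdk2 fell by 0.51 ± 0.07 on the log2 scale at 6 h (adjusted p = 4.4e-05) and rose by 0.72 ± 0.07 from 6 h to 24 h (adjusted p = 1.6e-05). The net rise over 22 °C at 24 h was small, log2 0.21 ± 0.07 (adjusted p = 0.025), and it missed the threshold without control replicate 3 or 4 (0.061 and 0.0644) or 24 h replicate 1, 2 or 4 (0.0715, 0.0614 and 0.0569). Pdk4, already the leading kinase gene, was 2870, 2970, 2400, 2130 and 2720 CPM at 22 °C, 2020, 2430, 2920, 3310 and 3130 after 6 h and 2640, 3750, 3420, 3380 and 3760 after 24 h. The 6 h libraries spanned the control range, and 4 of the 5 libraries at 24 h lay above all controls. Pdk4 was called at neither time: log2 0.06 ± 0.13 at 6 h (adjusted p = 0.78) and 0.36 ± 0.13 at 24 h (adjusted p = 0.065), the latter passing with DESeq2 (0.0311) and without 24 h replicate 1 (0.0248). Pdk3, at 1.26 to 3.27 CPM, rested on 40 to 96 counts per library in BAT, and its log2 values of 0.19 ± 0.21 and 0.39 ± 0.21 did not pass.

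The E1 genes declined together in BAT, passing the threshold against 22 °C at 24 h and not at 6 h. Pdk1 passed at both times, and a difference in timing was not tested. Pdha1 was 1690, 1650, 1700, 1400 and 1670 CPM at 22 °C, 1390, 1590, 1570, 1610 and 1520 after 6 h and 1070, 1400, 1290, 1110 and 1160 after 24 h. Control replicate 4 was low, and 24 h replicate 2 met it at 1400, so the groups only just separated. Pdha1 changed by log2 -0.09 ± 0.08 at 6 h (adjusted p = 0.44) and fell by 0.44 ± 0.08 at 24 h (adjusted p = 0.00084). Pdhb was 1730, 1420, 1620, 1490 and 1710 CPM at 22 °C, 1490, 1370, 1410, 1480 and 1500 after 6 h and 1160, 1300, 1200, 1250 and 1040 after 24 h. Every 24 h library lay below every library of the other BAT groups. The change was log2 -0.15 ± 0.07 at 6 h (adjusted p = 0.15) and a fall by 0.44 ± 0.07 at 24 h (adjusted p = 0.00036). From 6 h to 24 h, Pdha1 fell by 0.35 ± 0.08 (adjusted p = 0.0094) and Pdhb by 0.29 ± 0.07 (adjusted p = 0.015). With all 30 libraries in 1 fit, the adjusted p at 24 h was 0.119 for Pdha1 and 0.0821 for Pdhb.

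Against 22 °C, the carriers held their level in BAT within the precision of the test. Mpc1 ranged from 559 to 832 CPM and Mpc2 from 550 to 880 over the 15 libraries. For Mpc1 the log2 value was 0.06 at 6 h, with an interval of 2 standard errors from -0.11 to 0.23, and -0.16 at 24 h (from -0.33 to 0.01). For Mpc2 it was -0.01 (from -0.2 to 0.17) and 0.09 (from -0.09 to 0.28). Neither passed. From 6 h to 24 h, Mpc1 was -0.22 (from -0.39 to -0.05, adjusted p = 0.094) and Mpc2 0.11 (from -0.08 to 0.3, adjusted p = 0.48), and neither passed there. Among the phosphatases, Pdp2 stood at 176, 197, 167, 139 and 179 CPM at 22 °C, 157, 209, 228, 185 and 225 after 6 h and 199, 274, 193, 233 and 243 after 24 h. The groups overlapped, with replicate 4 the lowest control. Pdp2 was log2 0.21 ± 0.12 at 6 h (adjusted p = 0.24) and rose by 0.4 ± 0.12 at 24 h (adjusted p = 0.027), a call that was lost without control replicate 3 or 4 (0.0592 and 0.0732) or 24 h replicate 2, 4 or 5 (0.0771, 0.0545 and 0.054). Pdp1 was 7.72 to 14.6 CPM over the BAT libraries, highest in control replicate 5, the library richest in muscle transcripts, and its log2 values of -0.01 ± 0.15 and -0.11 ± 0.15 did not pass.

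**Figure D2:**
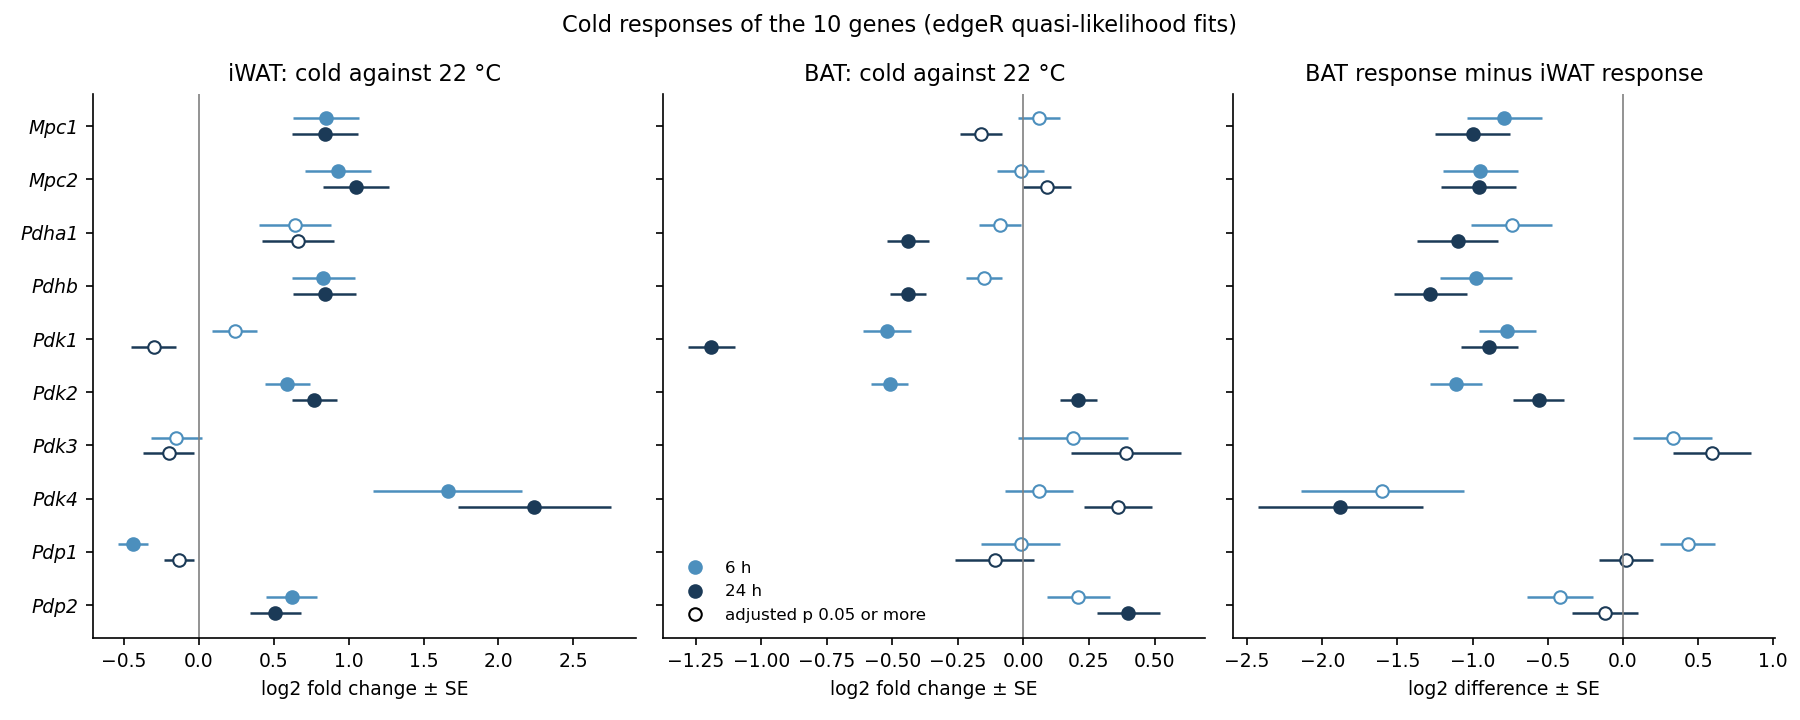
Log2 fold changes of the 10 genes in the cold, with standard errors, in iWAT (left), in BAT (middle) and as BAT response minus iWAT response (right); the 3 panels have different horizontal scales. Filled points have an adjusted p under 0.05; in iWAT the called values run from -0.44 to 2.24, in BAT from -1.19 to 0.4, and every called difference between the depots is negative, from -0.56 to -1.88.

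At 22 °C, BAT carried more transcript than iWAT of 8 of the 10 genes and less of 2, all of them past the threshold; of all genes tested, 32.4% were higher and 34.5% lower in BAT. That balance depended on the scaling. Of the genes called, 48.5% were higher here, 36% with upper-quartile factors and 17.4% with limma on log2(FPKM + 1), where the median of all genes moved by -0.3. Pdk4 differed most, 10.1-fold (log2 3.34 ± 0.42, adjusted p = 6.5e-08), and its ranges of 95.3 to 448 CPM in iWAT and 2130 to 2970 CPM in BAT were far apart. The E1 genes were 4.87-fold (Pdha1) and 4.24-fold (Pdhb) higher, Pdk2 4.12-fold, Mpc2 3.81-fold, Pdp2 3.78-fold, Pdk1 2.73-fold and Mpc1 2.64-fold, each with no overlap between the depots. On log2(FPKM + 1) these differences were smaller but all were called in the same direction. The log2 values were 0.8 for Pdk1 (1.45 in the count fit), 0.83 for Mpc1 (1.4), 1.26 for Pdp2 (1.92), 1.36 for Mpc2 (1.93), 1.43 for Pdk2 (2.04), 1.51 for Pdhb (2.08), 1.68 for Pdha1 (2.29) and 2.99 for Pdk4 (3.34). Pdk3 went the other way: it was log2 -1.24 ± 0.19 in BAT (adjusted p = 1.7e-06), with 1.26 to 2.55 CPM against 3.4 to 5.64 CPM. Pdp1 was log2 -0.29 ± 0.13 in BAT (adjusted p = 0.045) with overlapping ranges. Its call was lost with DESeq2 (adjusted p = 0.0538) and without control replicate 1, 2 or 3 of BAT (0.151, 0.127 and 0.0993) or 1, 2 or 5 of iWAT (0.0849, 0.0841 and 0.0714). Other settings gave a larger difference for Pdp1: -0.46 without BAT control replicate 5 (adjusted p = 0.000894), -0.48 with upper-quartile factors (0.00225), and -0.66 and -0.89 with limma on log2(FPKM + 1) and log2(FPKM + 0.1) (7.4e-07 and 1.24e-06). The order of the 6 groups was alike for Mpc2, Pdha1, Pdhb, Pdk2, Pdk4 and Pdp2: the 3 BAT groups stood above the 3 iWAT groups, with no overlap between the lowest BAT group and the highest iWAT group. For Mpc1 and Pdk1 the lowest BAT group overlapped with iWAT after 6 h. Even after 24 h of cold, iWAT reached a mean of 1240 ± 332 CPM of Pdk4, against 2610 ± 348 CPM in BAT at 22 °C.

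The depots differed in their response to cold for most of the 10 genes, and wherever the difference passed the threshold BAT moved less upward or more downward. The interaction term, the BAT response minus the iWAT response, passed for 5 of the 10 genes at 6 h, against 9.4% of all genes, and for 7 at 24 h, against 7.81%. All 12 of these values were negative; in the positive direction 1 gene had an unadjusted p under 0.05 at each time (Pdp1 at 6 h and Pdk3 at 24 h, named after their values were seen), and DESeq2 called 0 at either. At 6 h the largest among the called values was Pdk2 at -1.11 ± 0.17 (adjusted p = 0.00017), which rose in iWAT and fell in BAT. Pdk4 was at -1.6 ± 0.54 and not called (adjusted p = 0.06, 0.0306 with DESeq2). At 24 h the largest was Pdk4 at -1.88 ± 0.55 (adjusted p = 0.031), and next Pdhb at -1.28 ± 0.24 (adjusted p = 0.0019), Pdha1 at -1.1 ± 0.27 (adjusted p = 0.012) and Mpc1 at -1 ± 0.25 (adjusted p = 0.015). The median over the 10 genes was -0.78 at 6 h and -0.92 at 24 h, against -0.02 and -0.01 over all genes. Of all genes called, 849 were negative and 476 positive at 6 h, and 683 and 417 at 24 h. For Pdp2 the difference was -0.12 ± 0.22 at 24 h (adjusted p = 0.8), with an interval of 2 standard errors from -0.56 to 0.32. The depot contrast of Mpc1 at 6 h, -0.79 ± 0.25 (adjusted p = 0.045), was lost in 16 of 20 fits that left out a library, with adjusted p from 0.05 to 0.0967; the calls held without iWAT replicate 4 at 22 °C, iWAT replicates 2 and 3 or BAT replicate 1 at 6 h. That of Pdk2 at 24 h, -0.56 ± 0.17 (adjusted p = 0.038), was lost in 13 of 20 such fits, with adjusted p from 0.0503 to 0.0882, and held without iWAT replicates 3 and 4 or BAT replicate 4 at 22 °C, iWAT replicates 4 and 5 or BAT replicates 1 and 2 at 24 h. For Pdk4 at 24 h, 8 of 20 lost the call, with adjusted p from 0.0508 to 0.0631: those without iWAT replicates 1, 2 and 5 or BAT replicate 2 at 22 °C, iWAT replicates 4 and 5 or BAT replicates 1 and 4 at 24 h. With same-numbered iWAT and BAT libraries of a time point as a replicate block, 6 genes passed at 6 h, Pdk4 among them (-1.58, adjusted p = 0.048), and 7 at 24 h. Without the 3 muscle-rich BAT libraries and iWAT control replicates 2 and 4 together, 6 genes passed at 6 h and 7 at 24 h.

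The makeup of the kinase transcripts in cold iWAT came close to that of BAT. Pdk4 accounted for 47.1, 65.1, 74.7, 73.4 and 44.4% of the summed FPKM of the 4 kinase genes in the iWAT libraries at 22 °C, a mean of 60.9 ± 14.4%. Replicates 1 and 5 held the lowest shares, and they had Pdk2 at 34.6 and 37.3%. The mean Pdk4 share was 76.6 ± 10.7% after 6 h and 85.7 ± 4.33% after 24 h, when the lowest library had 80%, above all controls. In BAT it was 84.4 ± 1.44, 88.7 ± 2.63 and 87 ± 2.42% at the 3 times. The share of Pdk1 in BAT was 2.9 ± 0.417% at 22 °C and 1.02 ± 0.113% after 24 h. These are shares of transcripts, and no test was made on them, since their parts are the same counts tested above. Summed kinase FPKM came to 143 ± 62.2, 312 ± 182 and 470 ± 100 in iWAT and to 756 ± 81.9, 737 ± 142 and 943 ± 119 in BAT.

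**Figure D3:**
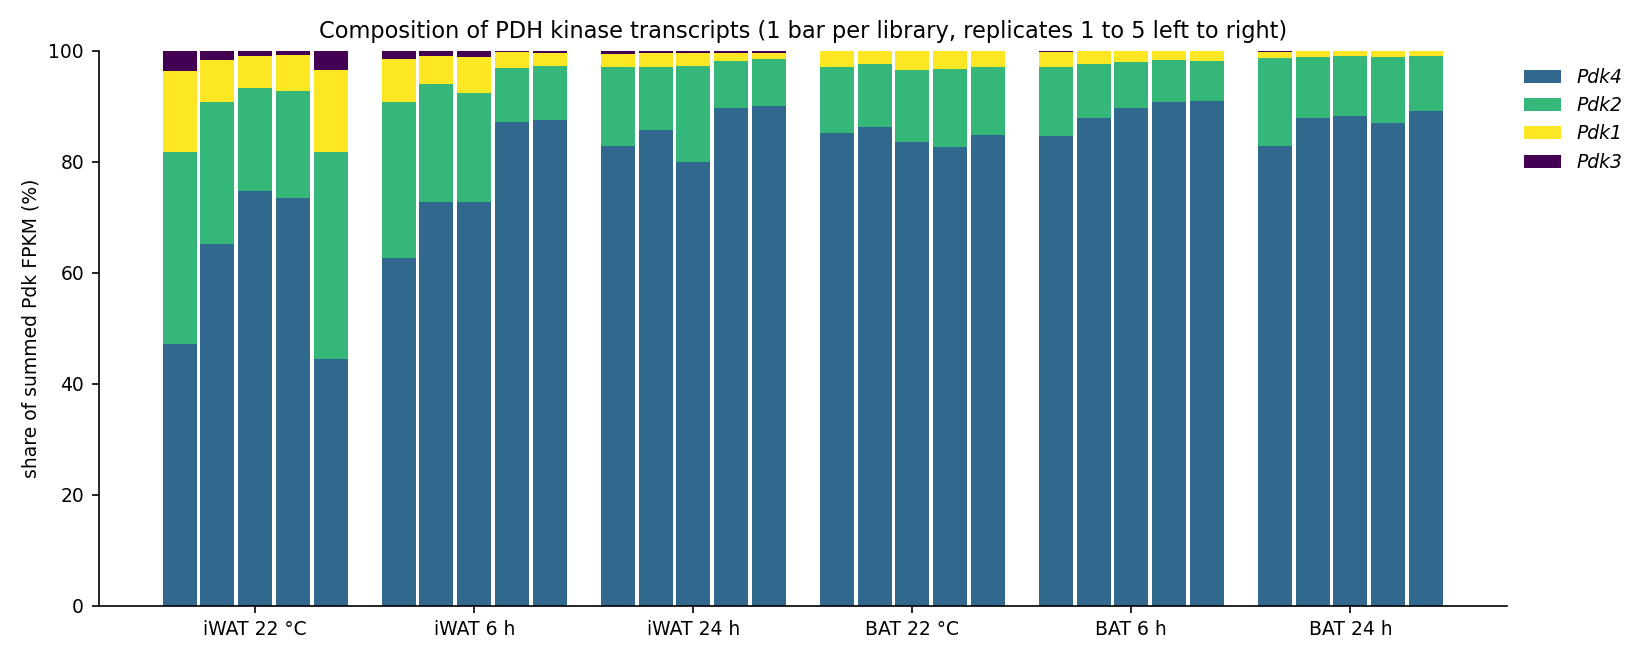
Share of each kinase gene in the summed FPKM of Pdk1, Pdk2, Pdk3 and Pdk4, in percent, 1 stacked bar per library. Pdk4 takes 44.4 to 74.7% in iWAT at 22 °C and 80 to 90.1% after 24 h, against 82.6 to 86.2% in BAT at 22 °C.

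The ratio of kinase transcripts to the transcript of their substrate was higher after 24 h in both depots. The ratio of summed Pdk to Pdha1 FPKM was 1.21 ± 0.43 in iWAT controls, 2 ± 0.643 at 6 h of cold and 2.89 ± 0.762 at 24 h; the 24 h range of 2.3 to 4.12 lay above the control range of 0.736 to 1.69. In BAT it was 2.03 ± 0.163, 2.14 ± 0.287 and 3.43 ± 0.324, and the 24 h range of 3.16 to 3.85 lay above both other groups. There the denominator Pdha1 fell from 373 ± 25 FPKM at 22 °C to 275 ± 31 after 24 h. The ranges of summed Pdk overlapped, with 643 to 846 FPKM at 22 °C and 741 to 1040 after 24 h. The ratio of summed Pdk to summed Pdp FPKM was 10 ± 3.41 in iWAT at 22 °C and 28.9 ± 5.98 after 24 h, with no overlap (6.38 to 13.3 against 23.4 to 36), and it lay between 20.3 and 30.5 in all BAT libraries. The ratio of Pdk2 to Pdk1 FPKM went from 4.37 ± 0.44 in BAT at 22 °C and 4.4 ± 0.314 after 6 h to 11.6 ± 1.54 after 24 h. Within the carrier, the ratio of Mpc1 to Mpc2 FPKM was 4.78 ± 0.359 in iWAT and 3.24 ± 0.153 in BAT at 22 °C; FPKM depends on the gene model's length, so such a ratio compares groups and says nothing of protein stoichiometry. All these ratios are descriptions, of transcripts and not of enzyme activity or phosphorylation.

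**Figure D4:**
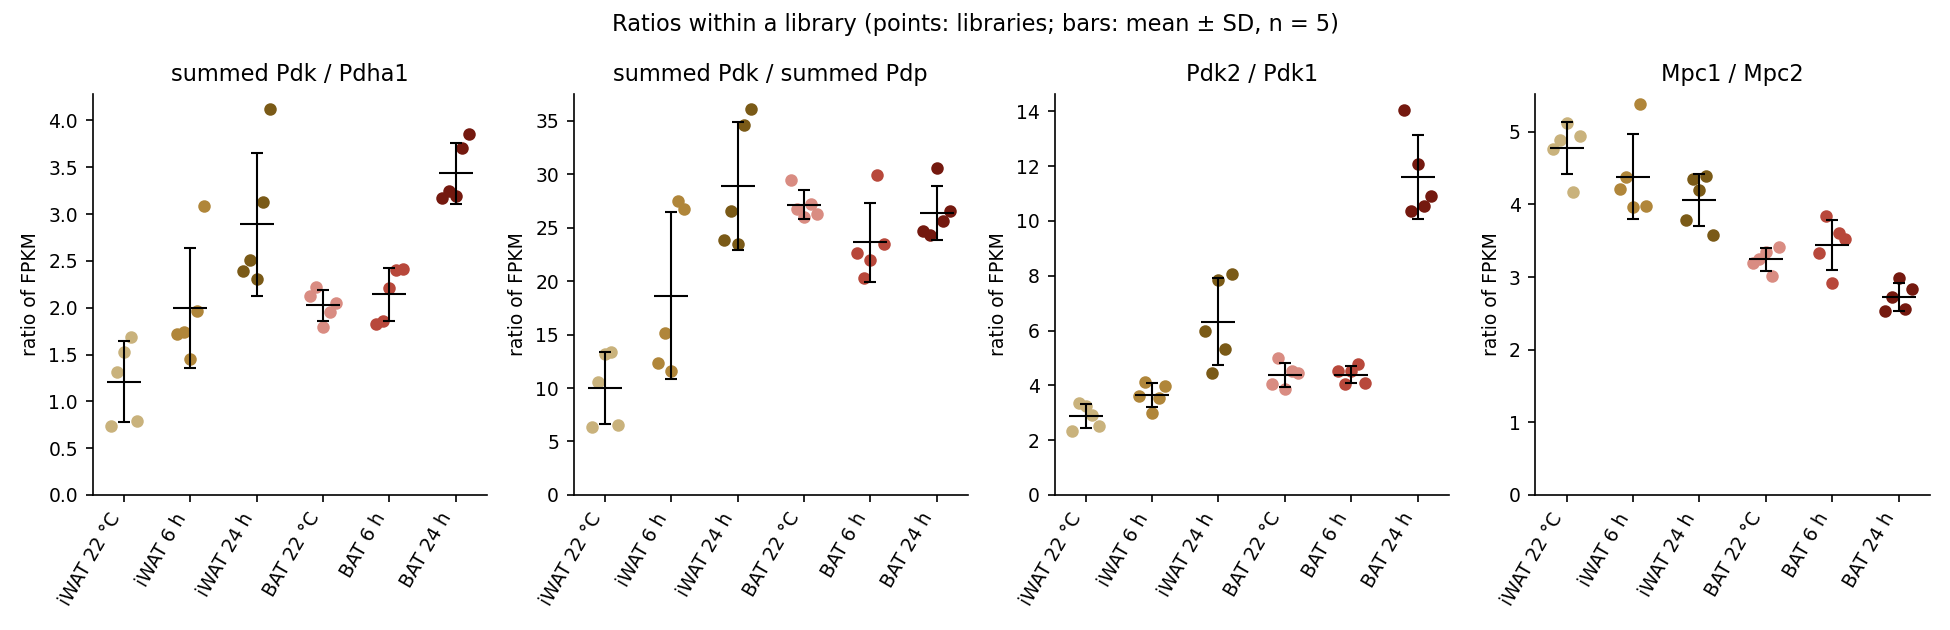
Ratios of FPKM within each library for 4 pairs of quantities, on linear axes from 0. Points are libraries and bars are mean ± SD (n = 5); Pdk2 to Pdk1 in BAT goes from 4.37 at 22 °C to 11.6 after 24 h, and summed Pdk to Pdha1 is higher after 24 h than at 22 °C in every library of both depots.

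Most other genes of the PDH complex rose in iWAT, as Pdhb did, and 1 of them rose in BAT, where both E1 genes fell at 24 h. For the counts in related gene lists, the shares over all genes were 12.9% higher and 10.1% lower in iWAT at 6 h, 12.8% and 10.1% at 24 h, 12.5% and 10.2% in BAT at 6 h, and 12.8% and 10.4% at 24 h. The medians over all genes were -0.03, -0.04, -0.01 and -0.01 in that order. Of 4 genes, Dlat (the E2 acetyltransferase), Dld (E3), Pdhx (the E3-binding protein) and Pdpr (a regulator of the phosphatase), 3 passed in iWAT at each time, all higher: Dlat at log2 0.84 ± 0.18 and 0.89 ± 0.18, Pdhx at 0.85 ± 0.17 and 0.88 ± 0.17, and Dld at 0.69 ± 0.17 and 0.83 ± 0.17. In BAT at 24 h, when Pdha1 and Pdhb were each lower by 0.44, 1 of the 4 passed, Pdhx, higher by 0.26 ± 0.05 (adjusted p = 0.0019), while Dlat was 0.07 ± 0.08 (adjusted p = 0.53), Dld 0.12 ± 0.06 (adjusted p = 0.13) and Pdpr -0.16 ± 0.25 (adjusted p = 0.69). The enzymes that supply lipoate and thiamine, the cofactors of the complex, numbered 10; 5 were higher in iWAT at 6 h, and at 24 h 5 were higher and 1 lower. In BAT, of 9 tested, 1 was higher and 4 lower at 6 h, and 2 higher and 1 lower at 24 h, the last close to the shares over all genes. The list medians were 0.36 and 0.3 in iWAT and -0.18 and -0.03 in BAT. Mcat, a mitochondrial fatty acid synthesis enzyme upstream of lipoate, was lower by 0.6 ± 0.07 at 6 h in BAT (adjusted p = 1.6e-05), and Lias, the lipoate synthase, by 0.27 ± 0.05 (adjusted p = 0.0016); Slc19a2, a thiamine transporter, was higher by 0.67 ± 0.08 (adjusted p = 1.7e-05).

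Genes that deliver pyruvate or lactate and those that use pyruvate and acetyl-CoA otherwise moved in their own ways. Of 10 tested genes for pyruvate formation and lactate exchange, 5 were higher in iWAT at 6 h (12.9% of all genes), and at 24 h 2 were higher and 1 lower, close to the 12.8% and 10.1% of all genes. In BAT 3 were higher and 1 lower at 6 h, and 4 higher and 1 lower at 24 h (12.8% and 10.4% of all genes). The list medians were 0.42 and 0.18 in iWAT and -0.06 and 0.15 in BAT. Ldhb, the heart-type lactate dehydrogenase subunit, rose by 1.02 ± 0.27 and 1.33 ± 0.27 in iWAT and by 0.22 ± 0.08 and 0.51 ± 0.08 in BAT, and the monocarboxylate transporter Slc16a1 by 1.22 ± 0.3 and 1.63 ± 0.31 in iWAT and 0.4 ± 0.08 and 0.38 ± 0.08 in BAT. Another transporter of that family, Slc16a7, fell by 1.07 ± 0.21 and 1.73 ± 0.22 in BAT. Among 10 genes for other fates, 3 and 2 were higher in iWAT at the 2 times; in BAT 3 were lower at 6 h, and at 24 h 4 were lower and 1 higher, against 10.2% of all genes lower at 6 h and 10.4% lower and 12.8% higher at 24 h. The list medians were 0.6 and 0.45 in iWAT and -0.15 and -0.28 in BAT. Citrate synthase Cs, which takes up the acetyl-CoA made by PDH, rose by 0.66 ± 0.15 and 0.84 ± 0.15 in iWAT and was 0.01 ± 0.06 and 0.07 ± 0.06 in BAT. The citrate carrier Slc25a1 fell in BAT by 0.71 ± 0.21 and 1.58 ± 0.22, and the citrate-cleaving enzyme Acly by 1.16 ± 0.29 and 1.24 ± 0.29.

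The sister 2-oxoacid dehydrogenases, which handle 2-oxoglutarate and branched-chain keto acids, have a kinase of their own, Bckdk. Of their 8 genes, 5 and 4 were higher in iWAT at 6 h and 24 h; in BAT 1 was lower at 6 h, close to the 10.2% of all genes, and at 24 h 3 were higher and 1 lower (12.8% and 10.4% of all genes). The list medians were 0.39 and 0.29 in iWAT and -0.08 and -0.02 in BAT. Bckdk fell by 0.43 ± 0.08 at 6 h and by 0.59 ± 0.08 at 24 h in BAT (adjusted p = 0.0007 and 3.9e-05), in the same libraries in which Pdk1 fell. Of 14 transcription regulators known to act on Pdk genes, 5 were higher in iWAT at 6 h, and at 24 h 4 were higher and 1 lower; in BAT 5 were higher and 1 lower at 6 h, and 5 higher and 3 lower at 24 h. For this list of 14 the shares over all genes were 12.8% higher and 10.1% lower in iWAT at 24 h and 12.8% and 10.4% in BAT at 24 h. The medians of this list were 0.37 and 0.29 in iWAT and 0.16 and 0.25 in BAT. Ppargc1a, the coactivator PGC-1 alpha, rose by 2.52 ± 0.42 and 2.74 ± 0.43 in iWAT and by 2.39 ± 0.27 and 2.08 ± 0.26 in BAT. Esrra, the nuclear receptor ERR alpha, rose by 0.79 ± 0.15 and 0.85 ± 0.15 in iWAT and by 0.38 ± 0.07 and 0.41 ± 0.07 in BAT. The depot differences of Ppargc1a were -0.14 ± 0.5 at 6 h (adjusted p = 0.89) and -0.67 ± 0.51 at 24 h (adjusted p = 0.45), with wide errors. How they relate to the Pdk4 difference of -1.88 ± 0.55 at 24 h was not tested.

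Over libraries, the 10 genes were ordered more alike in iWAT than in BAT. Spearman's rho of CPM over the 15 libraries of a depot, given as a description since libraries share groups and cold exposure, was 0.97 between Mpc1 and Mpc2 in iWAT and 0.25 in BAT. Pdha1 and Pdhb had 0.9 and 0.79, and Pdk4 and Pdp2, a kinase and a phosphatase, 0.89 and 0.74. Pdk1 followed the E1 genes in BAT (0.84 with Pdha1 and 0.88 with Pdhb) and did so less in iWAT (0.17 and 0.36). Pdk4 had 0.94 with Ucp1, the uncoupling protein of brown fat, in iWAT and 0.11 in BAT. By the mean of the 2 rho values among 8992 genes, the genes most like Pdk4 were Pank1 (0.83), Fam210a (0.82), Pdp2 (0.81) and Kctd9 (0.81). Those most like Pdha1 were Ndufs1 (0.86), Vps13a (0.86), Spire1 (0.85) and Pdhb (0.84), and most like Mpc1 were Cox7b (0.85), Mrps17 (0.85), Gbe1 (0.83) and Rpp14 (0.82). Pdp1 had no close match, with Ap1s2, Stim2 and Rilpl1 at 0.72 and Prss23 at 0.71.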

How the data were processed

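PolyA RNA of 15 iWAT and 15 BAT libraries was analysed from a deposited table of raw read counts per gene and a deposited table of FPKM. Reads were handled with HISAT2 and HTSeq on GRCm39, per the submitters' processing notes; versions and the use of strand are not given in the sources used here. The deposited FPKM equalled the count divided by gene length and library total and was not otherwise normalised. Totals ranged from 25.3 to 41 M counts (M, mega), and replicates differed by far more than sampling noise (chi-square per degree of freedom 14.6 to 191), so each library counts once. Of the 21652 gene identifiers, 495 had no symbol.

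Counts were tested with edgeR 4.0.16 in R 4.3.3: filterByExpr (minimum count 10), TMM factors, the quasi-likelihood F test, and Benjamini-Hochberg adjustment over all genes tested, called at an adjusted p under 0.05. Comparisons within a depot used its 15 libraries, comparisons between depots all 30. The standard error is the log2 fold change divided by the square root of F. CPM are TMM-scaled over all 30 libraries. Same-numbered iWAT and BAT libraries deviated together at 24 h (correlations of 0.12 to 0.48, 5 of 5 best matched by their own number), a pairing that comes from the data and not from the labels, so a fit of the depot contrasts with number within time as a block was added. The fits were tested on simulated data. Alternatives were DESeq2 1.42.0, limma 3.58.1 on log2(FPKM + 1) and log2(FPKM + 0.1), other scaling factors and filters, a replicate block, other sets of libraries, and each library left out in turn. The 10 genes, the related gene lists and the marker lists were chosen with earlier results of these data known. From each related list, up to 4 genes with the smallest adjusted p in any cold comparison are named. Genes of like pattern were ranked among those with at least 5 CPM on average in each depot, without predicted genes. Protein sequences were not used here.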

Additional observations from a re-analysis of the deposited data

Results flagged for a closer look

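Among 60 groups of 5 libraries (10 genes in 6 groups), 2 held a library far from the other 4, where chance gives about 1 in 20 groups (5%). Mpc2 was at 309 CPM in iWAT replicate 4 at 22 °C, against 135 to 173 CPM in the other controls; the same library was the highest control for Mpc1, Pdhb, Pdk4 and Pdp2 and had the highest sum of brown adipocyte markers of that group, 1240 CPM. Pdha1 was at 1400 CPM in BAT replicate 4 at 22 °C, against 1650 to 1700 CPM in the others; that library had 5330 CPM of skeletal muscle markers and the lowest sum of brown markers of its group, 13000 CPM, while replicate 5 had 8640 CPM of muscle markers and Pdha1 at 1670 CPM. The part of either in these values was not tested.

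The cold response differed between the depots in 12 of 20 tests of the difference itself, against 9.4% of all genes at 6 h and 7.81% at 24 h. In each of the 12 the BAT response minus the iWAT response was negative. At 6 h these were Mpc1 at -0.79, Mpc2 at -0.95, Pdhb at -0.98, Pdk1 at -0.77 and Pdk2 at -1.11 on the log2 scale. At 24 h they were Mpc1 at -1, Mpc2 at -0.96, Pdha1 at -1.1, Pdhb at -1.28, Pdk1 at -0.89, Pdk2 at -0.56 and Pdk4 at -1.88. Of all genes called, 849 were negative and 476 positive at 6 h, and 683 and 417 at 24 h. The calls of Mpc1 at 6 h, Pdk2 at 24 h and Pdk4 at 24 h were lost in 16, 13 and 8 of 20 fits that left out a library. Pdk2 at 6 h and Pdhb at 24 h are the 2 cases in which the gene rose in iWAT and fell in BAT with both changes past the threshold.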

How the results depend on the processing

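Over 2090 refits of the log2 fold changes of the 10 genes, 1967 kept their direction and side of the threshold, 95 lost a call, 28 gained one and 0 reversed a called direction; 62 changed sign among values that were never called. For BAT after 24 h against 22 °C, the 5 genes called became 1 with all 30 libraries in 1 fit, 3 without the 3 muscle-rich BAT libraries, and 3 to 5 when 1 library was left out. For BAT after 24 h against 6 h, the 4 called became 2 with all 30 libraries in 1 fit. With 1 library left out, the number called ranged from 5 to 8 in iWAT at 6 h, 5 to 7 at 24 h, 4 to 7 and 5 to 7 for the depot difference at 6 h and 24 h, and 9 to 10 for BAT against iWAT. Counts over all genes moved more: iWAT at 6 h went from 3148 to 1525 to 4032 with 1 library left out. The share of called genes that were higher depended on the scaling (count fit, upper-quartile factors and limma on log2(FPKM + 1)): 56.2, 37.6 and 11.7% in iWAT at 6 h, 55.9, 42.2 and 24.9% at 24 h, 55.1, 47.9 and 44.9% in BAT at 6 h, 50.6, 59.5 and 68.6% in BAT from 6 h to 24 h, and 35.9, 49.5 and 84.6% at 6 h and 37.9, 51.3 and 80.3% at 24 h for the depot difference; the cause was not tested. Within a depot and between depots at 22 °C and 6 h, the replicate numbers paired the libraries at most in part. Correlations of same-numbered deviations ran from -0.43 to 0.48, and at most 4 of 5 pairs exceeded 0.1 (BAT at 24 h against 22 °C). At most 3 of 5 were best matched by their own number (that comparison and iWAT at 24 h against 6 h). Whether this is a partial pairing was not tested. A replicate block by number over all groups moved Pdha1 in iWAT at 24 h to an adjusted p of 0.0382 and the Pdk4 depot difference at 6 h to 0.0427. The block within each temperature and time, added after seeing the data, raised the depot differences called over all genes at 6 h from 1325 to 2085 and changed no call of the 10 genes other than that of Pdk4 at 6 h. Depth limits Pdk3 and Pdp1 most, at 40 to 297 and 188 to 703 counts per library. Transcript levels say nothing of PDH phosphorylation, and whether iWAT and BAT libraries share animals is not given in the labels.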
